A study of Salvia dorisiana with 6 samples.

Results

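The list of trichome transcripts deposited for *Salvia dorisiana*, a fruit-scented sage that makes methylperillate (MePA), holds 8 methyltransferase transcripts beside SdPAOMT, the perillic acid *O*-methyltransferase. They were chosen by annotation: a Pfam domain name with Methyltransf, or a closest BLAST hit called a methyltransferase, in any row but that of SdPAOMT. The rule took 8 of 85 listed transcripts, used none of their levels, and left 76 that are no methyltransferase by this rule. RNA was sequenced from 6 tissues of untreated greenhouse plants multiplied by cutting, with 1 library each: roots, stem, trichomes, and leaves in the classes <3 cm, 3–10 cm and >10 cm. Genotypes beyond the species name, plant ages and the number of plants per library are not given in the sources used here. Trichomes were isolated from apical buds and young leaves of up to 7 cm, so that no leaf library is their exact source, and trichome heads were collected on a mesh without separating trichome types further. Values are the authors' RPKM, reads scaled to transcript length and to the mapped reads of the library, which is a level per length. The mapping reference was trichome transcripts, so levels in other tissues are relative to the reads that those transcripts took.

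The listed transcripts had been selected by the study on these same 6 libraries, by a trichome RPKM >1000 and a correlation (*R* >0.6) with the limonene synthase SdLS and with the pathway metabolites. A peak in trichomes is thus shared by all members through the selection and is no independent evidence. With 1 library per tissue, no difference has a replicate check, and the 95% intervals given (exact) hold counting error alone. In these bulk samples, fewer trichome cells in a tissue and less RNA per cell cannot be told apart. Markers of leaf blade, stem and root cells are not on the list, so the tissue labels were not checked against them. By the smallest totals that fit the RPKM values, the libraries held 3314347 mapped fragments (trichomes) to 19415968 (leaves 3–10 cm). True totals can be whole multiples of these. Members were thinly covered in roots, with a median of 31 fragments and a lowest of 1, and deeply in trichomes, with at least 3788.

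Methyltransferases of this kind move the methyl group of *S*-adenosylmethionine to an oxygen, nitrogen or carbon atom of a small molecule. Enzymes of the SABATH family, which carry the Pfam domain Methyltransf_7, methylate carboxyl groups of acids such as salicylic, benzoic or jasmonic acid, or ring nitrogens, as in caffeine synthesis. The domain Methyltransf_2, usually preceded by a dimerisation domain, marks *O*-methyltransferases that act mostly on hydroxyl groups of phenylpropanoids and flavonoids. Glandular trichomes of the mint family are known for products of both kinds, among them methyl esters, phenylpropenes and methoxylated flavones. In the MePA pathway described by the study, limonene is made by SdLS, hydroxylated by the P450 SdL7H, oxidized with the help of SdPOHDH, and esterified by SdPAOMT. The study isolated no *S. dorisiana* enzyme for the step from aldehyde to acid. It also does not conclude that SdPAOMT is the only methyltransferase that forms MePA in the plant.

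By domain, 2 members were SABATH, 4 were Methyltransf_2 and 2 had neither domain. The SABATH members were clust2514 and clust4450, and each had Methyltransf_7 as its only Pfam name and an *S*-adenosylmethionine-dependent methyltransferase as its closest hit, as did SdPAOMT. The Methyltransf_2 members were clust2472 (closest to an *O*-methyltransferase), clust2724 (a flavonoid 4'-*O*-methyltransferase), clust2684 (a flavone or 8-hydroxyquercetin 8-*O*-methyltransferase) and clust2791 (a caffeic acid 3-*O*-methyltransferase). All 4 also had the Dimerisation domain. The remaining members were clust4440, closest to the chloroplastic 2-phytyl-1,4-beta-naphthoquinone methyltransferase of phylloquinone (vitamin K) synthesis, and clust15, closest to a cyclopropane-fatty-acyl-phospholipid synthase family protein. In bacteria, enzymes named like the closest hit of clust15 modify the double bond of fatty acyl chains. Each of these 2 had 19 Pfam names, of which 10 in clust4440 and 6 in clust15 were Methyltransf names. The names of the other methyltransferases cloned by the study cannot be matched to clusters here, and their activity assays were not used.

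The SABATH members were the 2 most abundant of the 8 in trichomes, stem and all leaf sizes. The RPKM of clust2514 was 8.67 in roots, 351 in stem, 11344 in trichomes (11223–11467) and, by leaf size, 817 at <3 cm, 645 at 3–10 cm and 487 at >10 cm. Its place among the 85 listed transcripts was between 4 and 11 in trichomes, stem and leaves, and 40 in roots. The RPKM of clust4450 was 16.4 in roots, 163 in stem, 6803 in trichomes (6704–6904) and, by leaf size, 424 at <3 cm, 354 at 3–10 cm and 238 at >10 cm. Neither transcript had neighbouring tissues, in the order of its levels, whose ratio had a counting interval holding 1. The ratio of clust2514 to clust4450 was between 1.67 and 2.15 in stem, trichomes and leaves. In roots, clust2514 was the lower of the pair, at 0.528 times clust4450 (0.365–0.758), from 50 and 85 fragments.

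Both SABATH members stood above SdPAOMT, the third SABATH transcript of the list, in stem, trichomes and leaves, and below it in roots. SdPAOMT itself was at 105 RPKM in roots, 14.4 in stem, 1557 in trichomes and, by leaf size, 108 at <3 cm, 51.4 at 3–10 cm and 13.8 at >10 cm. The level of clust2514 was 7.29 times that of SdPAOMT in trichomes (7.08–7.50), 24.3 times in stem (20.1–29.7) and 0.0825 times in roots (0.0607–0.11). The same ratio was wider in larger leaves, with 7.58 at <3 cm, 12.6 at 3–10 cm and 35.3 at >10 cm (29.8–42.1). For clust4450 the ratio to SdPAOMT was 0.156 in roots and, by leaf size, 3.93 at <3 cm, 6.89 at 3–10 cm and 17.2 at >10 cm (14.5–20.6). The mapping allowed up to 10 places per read, so similar transcripts could share reads, and how far the 3 SABATH transcripts did so was not tested.

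**Figure D1:**
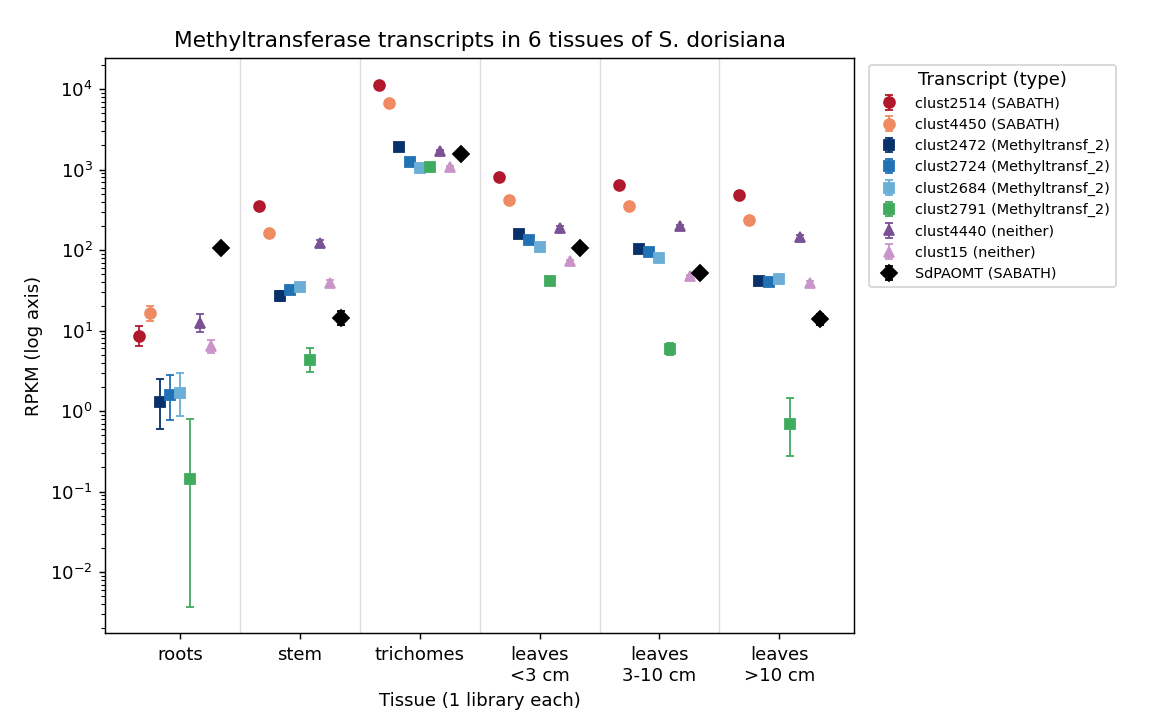
RPKM of the 8 methyltransferase transcripts and SdPAOMT in each tissue (log axis, 1 library per tissue), with circles for SABATH members, squares for Methyltransf_2 members, triangles for members with neither domain, a black diamond for SdPAOMT, and bars for exact 95% Poisson intervals (counting error only). The SABATH circles lead in stem, trichomes and leaves, SdPAOMT leads in roots at 105 RPKM, and clust2791 is lowest in all tissues but trichomes, at 0.144 RPKM in roots from 1 fragment.

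Among the Methyltransf_2 members, clust2472, clust2724 and clust2684 ran close together. The RPKM of clust2472 was 1.31 in roots, 27.2 in stem, 1889 in trichomes and, by leaf size, 157 at <3 cm, 104 at 3–10 cm and 41.9 at >10 cm. The flavonoid 4'-*O*-methyltransferase-like clust2724 was at 1.57 RPKM in roots, 32.1 in stem, 1230 in trichomes and, by leaf size, 134 at <3 cm, 95.9 at 3–10 cm and 40.1 at >10 cm. The flavone 8-*O*-methyltransferase-like clust2684 was at 1.69 RPKM in roots, 34.7 in stem, 1054 in trichomes and, by leaf size, 110 at <3 cm, 80.2 at 3–10 cm and 44.4 at >10 cm. In trichomes and in leaves up to 10 cm their order was clust2472, clust2724, clust2684, and in stem clust2684 was highest, at 34.7 RPKM (30.8–39.1), with clust2472 lowest, at 27.2 (23.6–31.1). In roots these 3 rested on 9, 11 and 12 fragments, and their intervals overlapped.

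The Methyltransf_2 member clust2791, whose closest hit acts on the caffeic acid unit of lignin and phenylpropene precursors in other plants, kept the smallest share of its trichome level in every other tissue among the 8. Its RPKM was 0.144 in roots, 4.37 in stem, 1076 in trichomes (1042–1111) and, by leaf size, 41.8 at <3 cm, 5.92 at 3–10 cm and 0.697 at >10 cm (0.280–1.44). In trichomes it lay within the range of the other Methyltransf_2 members, 1054 to 1889 RPKM, but in leaves >10 cm it was the lowest of the 8, and 7 fragments stand behind that value. The low end of the trichome range is bounded by the study's selection (trichome RPKM >1000). As a percentage of its trichome level, clust2791 had 0.406% in stem and, by leaf size, 3.89% at <3 cm and 0.0648% at >10 cm. The other 7 members had 1.44% to 7.12% in stem and 6.23% to 11% in leaves <3 cm. Counting error alone did not separate leaves 3–10 cm from stem for clust2791 (ratio 1.35, 0.919–2.04), nor leaves >10 cm from roots (ratio 4.83, 0.620–217).

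The members with neither domain had lower levels than the SABATH pair, except that clust4440 was above clust2514 in roots, where their intervals overlapped. The phylloquinone enzyme-like clust4440 was at 12.5 RPKM in roots, 123 in stem, 1728 in trichomes and, by leaf size, 191 at <3 cm, 197 at 3–10 cm and 144 at >10 cm. It was thus the third of the 8 in stem and in all leaf sizes, and had the highest share of its trichome level in stem, 7.12%, of any member. For clust15 the RPKM was 6.41 in roots, 39.2 in stem, 1077 in trichomes and, by leaf size, 72.4 at <3 cm, 47.5 at 3–10 cm and 38.5 at >10 cm. Its levels in stem and in leaves >10 cm were not separated by counting error (ratio 1.02, 0.923–1.12). By recovered length clust15 was the longest member, at 2682 nt, and clust4440 and clust4450 the shortest, at 795 nt, beside 885 nt for clust2514 and 1050 nt for SdPAOMT. The SdPAOMT protein aligned by the study is longer than 1050 nt can encode, so a recovered length need not span a whole reading frame. Whether the members are complete was not tested.

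Trichomes against leaves <3 cm asks how far a transcript stands above the youngest leaves that carry the glands. All 8 members were at least 2-fold higher in trichomes, as were 95.3% of the 85 listed transcripts, and relative to the median of the 76 other listed transcripts 1 of 8 was, clust2791. The highest ratio was that of clust2791, with 1076 RPKM in trichomes against 41.8 in leaves <3 cm, or 25.7-fold (23.7–28.0). The SABATH members followed clust2791 at 16.1 for clust4450 (15.6–16.6) and 13.9 for clust2514 (13.6–14.2), on either side of clust15, at 14.9 (14.3–15.5). The lowest were clust4440 at 9.07 (8.62–9.54), clust2724 at 9.19 (8.73–9.68) and clust2684 at 9.55 (9.02–10.1), with clust2472 between at 12.1. The median log2 ratio was 3.90 over the 2 SABATH members, 3.42 over the 4 Methyltransf_2 members and 3.69 over the 8, beside 3.35 over the whole list. The span of the Methyltransf_2 members, 3.20 to 4.69 on the log2 scale, enclosed both SABATH values. For comparison, SdPAOMT had a ratio of 14.4 (13.7–15.3), SdLS 12.3, SdL7H 9.22 and SdPOHDH 8.48.

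**Figure D2:**
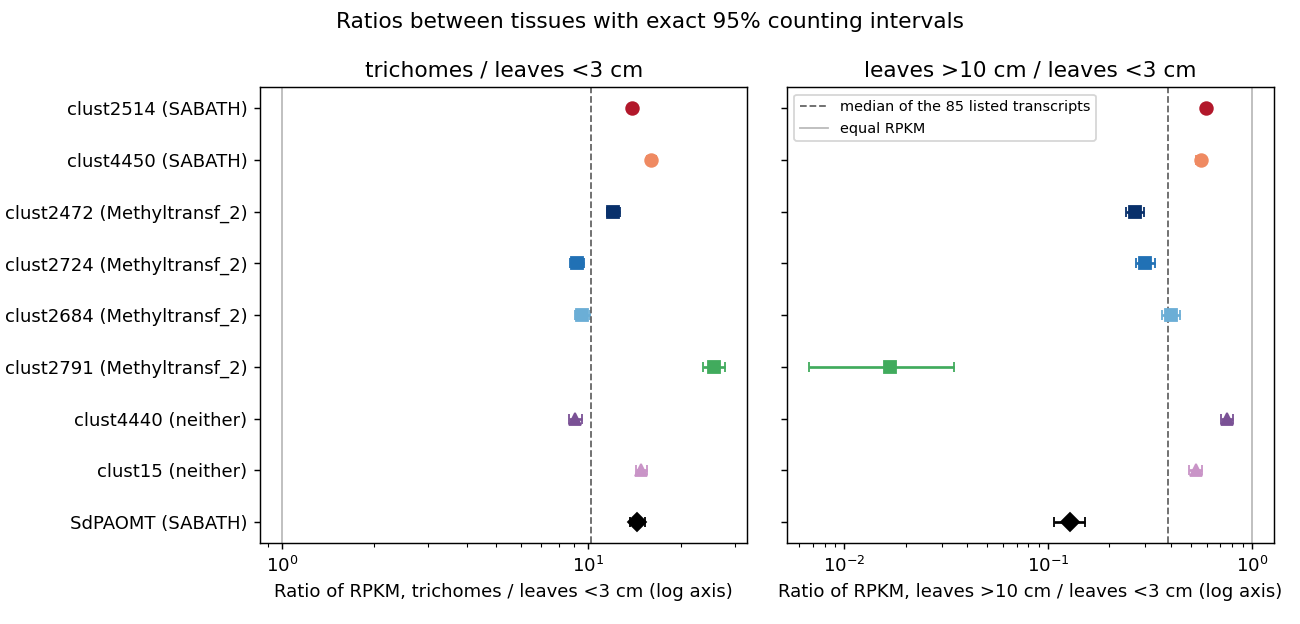
Ratio of RPKM for each transcript (log axes) between trichomes and leaves <3 cm (left) and between leaves >10 cm and leaves <3 cm (right), with exact 95% counting intervals; the dashed line is the median ratio of the 85 listed transcripts (10.2 left, 0.390 right) and the solid line equal RPKM. On the right all 9 transcripts lie below 1, but clust2514, clust4450, clust4440 and clust15 lie right of the dashed line, which is higher relative to the list's median, clust2684 lies next to it at 0.402, and clust2791 is far left at 0.0167.

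The RPKM of 7 of 8 members was lower in each next larger leaf class, the exception being clust4440, beside 65 of 85 or 76.5% of the list, and 2 of 8 had this order relative to the median of the 76 other transcripts. Between leaves 3–10 cm and leaves <3 cm, 1 of 8 members was at least 2-fold lower in the larger leaves, clust2791 at 0.141 times (0.116–0.172), beside 20% of the list. At this step clust2514 was at 0.789 times and clust4450 at 0.835 times its level in leaves <3 cm, while clust4440 was level within counting error (1.03, 0.979–1.09). Relative to the median of the 76 other transcripts, which was lower by 0.51 on the log2 scale at this step, clust2514 and clust4450 were higher in leaves 3–10 cm, by 0.17 and 0.25. Between leaves >10 cm and leaves 3–10 cm, 3 of 8 were at least 2-fold lower, beside 49.4% of the list (1 of 8, clust2791, relative to the median of the 76 other transcripts). These were clust2472 at 0.401 times, clust2724 at 0.418 times and clust2791 at 0.118 times, and the next, clust2684, fell short of the limit at 0.553 times.

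Over the whole span, leaves >10 cm against leaves <3 cm, the members at least 2-fold lower in leaves >10 cm were the 4 Methyltransf_2 members and none of the others, 4 of 8 beside 60% of the list (1 of 8 relative to the median of the 76 other transcripts). The ratios were 0.267 for clust2472 (0.240–0.297), 0.299 for clust2724 (0.269–0.333), 0.402 for clust2684 (0.362–0.446) and 0.0167 for clust2791 (0.00667–0.0345). The last, −5.91 on the log2 scale, was −4.66 with 1 RPKM added to both values. Those of the SABATH members were 0.596 for clust2514 (0.575–0.618) and 0.561 for clust4450 (0.531–0.592), and those of the members with neither domain were 0.755 for clust4440 and 0.532 for clust15. The median log2 ratio was −0.79 over the SABATH members, −1.82 over the Methyltransf_2 members and −1.11 over the 8, beside −1.36 over the list. Both SABATH values, −0.83 and −0.75, lay inside the range of the 6 members of other types, −5.91 to −0.40. Because most of the list was lower in large leaves, the sign depends on the scale. Divided by the median RPKM of the 76 other listed transcripts, which was itself lower by 1.27 on the log2 scale, the SABATH median was +0.48 and that of the 8 members +0.16, while that of the Methyltransf_2 members was still negative, at −0.55. On that scale clust2514, clust4450, clust4440 and clust15 had a higher level in leaves >10 cm than at <3 cm, by 0.53, 0.44, 0.87 and 0.36, and clust2684 was level at −0.04.

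All 4 genes of the MePA pathway were at least 2-fold lower in leaves >10 cm than in the smallest leaves, as were 60% of the list, and relative to the median of the 76 other transcripts 3 of 4 were, with SdL7H at −0.97 on the log2 scale. The ratio of leaves >10 cm to leaves <3 cm was 0.178 for SdLS (0.173–0.183), 0.212 for SdL7H, 0.171 for SdPOHDH and 0.128 for SdPAOMT (0.107–0.152), each below every member but clust2791. SdLS is the name of a cluster that the study also names SdEuS, a eucalyptol synthase, and its value covers both. As a percentage of the RPKM of that cluster, clust2514 was at 1.90% in roots, 82.0% in stem, 50.7% in trichomes and, by leaf size, 44.9% at <3 cm, 63.4% at 3–10 cm and 150.7% at >10 cm. In leaves >10 cm it was thus above the limonene synthase cluster, with 487 RPKM for clust2514 and 323 for the SdLS cluster, a ratio of 1.51 (1.45–1.57). By leaf size the percentage for clust4450 was 23.3% at <3 cm, 34.8% at 3–10 cm and 73.6% at >10 cm. For clust2472, clust2724 and clust2684 it stayed between 6.08% and 13.7% over the leaf sizes, and for clust2791 it was 2.30% at <3 cm and 0.216% at >10 cm.

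**Figure D3:**
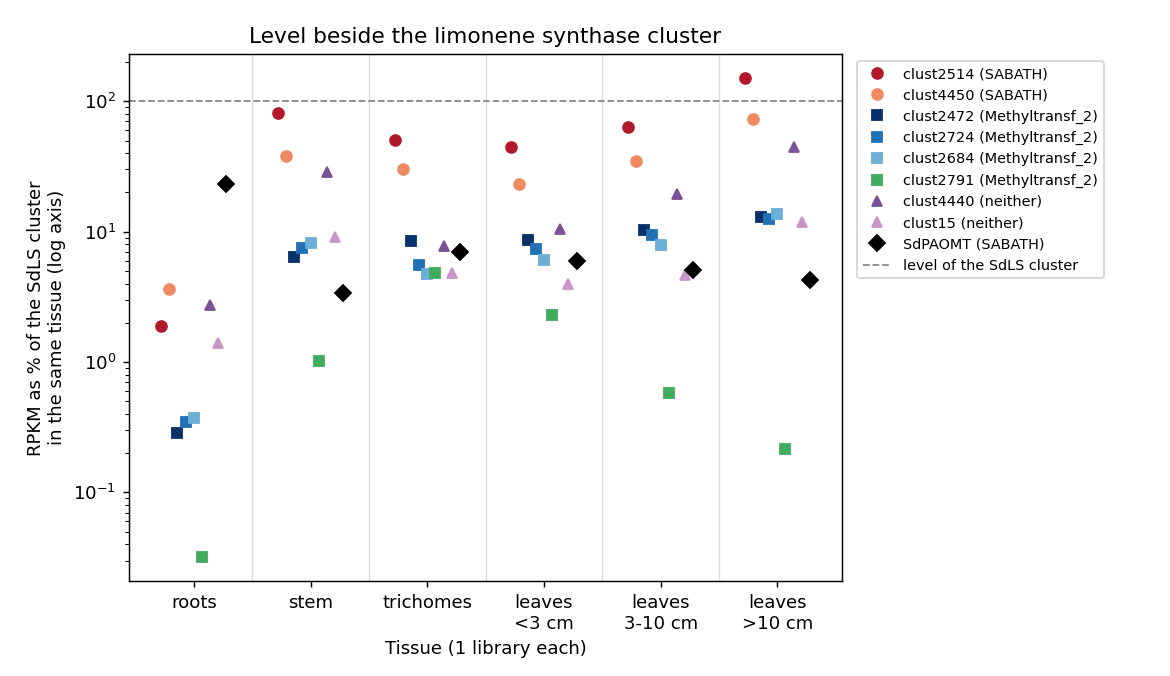
RPKM of each transcript as a percentage of the RPKM of the SdLS cluster in the same tissue (log axis, 1 library per tissue), with the dashed line at the level of the SdLS cluster. In leaves >10 cm clust2514 stands above the line at 150.7%, and in roots every member is below 4% while SdPAOMT is at 23.1%.

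Stem was compared with the largest leaves. No member was at least 2-fold lower in stem (0 of 8), beside 27.1% of the list. The ratio of stem to leaves >10 cm was 0.721 for clust2514, 0.687 for clust4450 and between 0.649 and 1.02 for the others except clust2791. That transcript was higher in stem, with 4.37 RPKM in stem and 0.697 in leaves >10 cm, a ratio of 6.27 (2.74–16.8), from 34 and 7 fragments. The 7 other members all had a positive difference once divided by the median of the 76 other transcripts, which was lower in stem by 0.91 on the log2 scale, and a negative or near-zero one before.

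Roots had the lowest RPKM of every member, though for clust2791 counting error did not separate roots from leaves >10 cm. SdPAOMT was lowest in stem and leaves >10 cm, which counting error did not separate (ratio 1.05, 0.807–1.35). All 8 members were at least 2-fold lower in roots than in stem, beside 67.1% of the list, and also at least 2-fold lower in roots than in trichomes, beside 98.8%. Relative to the median of the 76 other transcripts, which was lower in roots than in stem by 2.85 on the log2 scale, 5 of 8 were at least 2-fold lower in each comparison, clust15 was higher in roots than in stem, by 0.24, and clust4440 and clust15 were higher in roots than in trichomes, by 0.95 and 0.66. The ratio of roots to stem was 0.0247 for clust2514 (0.0183–0.0327), 0.10 for clust4450 (0.0795–0.125), 0.102 for clust4440 and 0.164 for clust15. For clust2472, clust2724 and clust2684 it was between 0.0482 and 0.0489. For clust2791 it was 0.0331, with an interval of 0.000813 to 0.197 from 1 root fragment. The median log2 ratio was −4.33 for the SABATH members, −4.37 for the Methyltransf_2 members and −4.36 for all 8, beside −2.53 for the list. SdPAOMT was higher in roots, with 105 RPKM in roots and 14.4 in stem, a ratio of 7.28 (5.95–8.97), and SdLS was near level at 1.06. Another listed transcript with methyltransferase-type Pfam names outside the rule (ICMT and PEMT), clust2795, was also higher in roots, at 133 RPKM in roots and 45.0 in stem.

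Added up, the 8 members took 2.53% of the mapped fragments in trichomes, against 0.188% in leaves <3 cm, and 0.00529% in roots, against 0.0749% in stem. Their summed RPKM was 48.7 in roots, 775 in stem, 26202 in trichomes and, by leaf size, 1946 at <3 cm, 1530 at 3–10 cm and 1034 at >10 cm. The SABATH pair held most of this sum in every tissue, with 51.4% in roots, 66.4% in stem, 69.3% in trichomes and, by leaf size, 63.7% at <3 cm, 65.3% at 3–10 cm and 70.1% at >10 cm. Counted in fragments and not per length, the share in roots was 39.1%, below that of the other types together. By leaf size the Methyltransf_2 share was 22.7% at <3 cm, 18.7% at 3–10 cm and 12.3% at >10 cm, while that of clust4440 was 9.79% at <3 cm, 12.9% at 3–10 cm and 13.9% at >10 cm. With SdPAOMT added, that transcript held 68.3% of the sum of the 9 in roots and between 1.32% and 5.61% elsewhere.

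**Figure D4:**
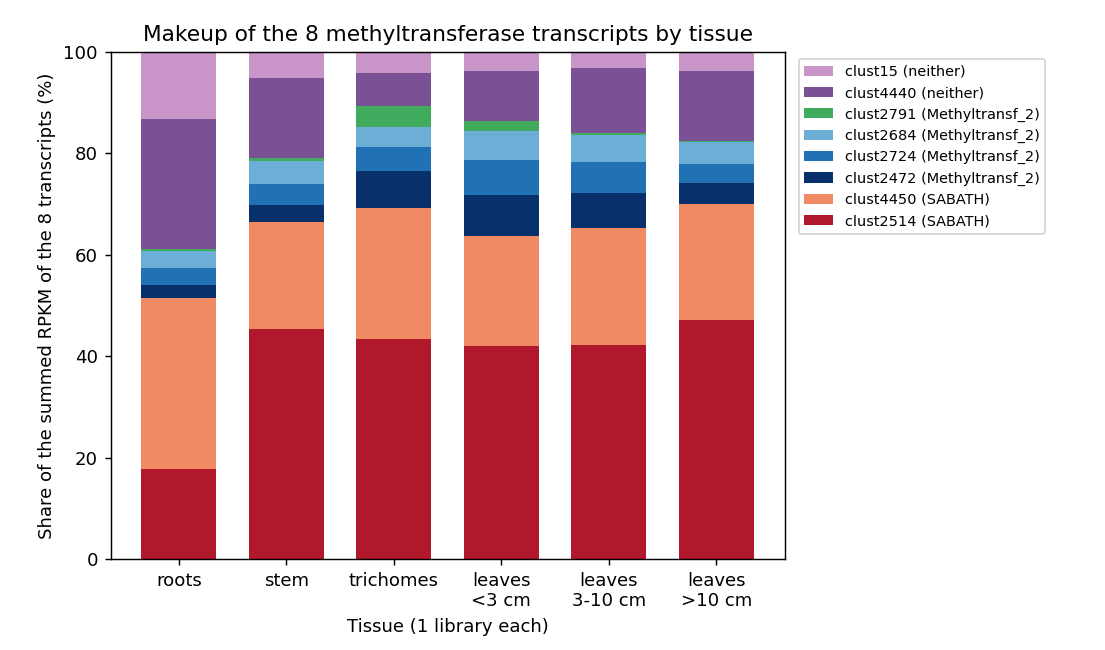
Share of each transcript in the summed RPKM of the 8 members, in percent, by tissue (1 library each), with SABATH members in red tones, Methyltransf_2 members in blue and green, and members with neither domain in purple tones. The red part is 63.7% to 70.1% in stem, trichomes and leaves, and 51.4% in roots, where clust4440 takes 25.7%.

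Profiles were compared by the root mean square (RMS) difference of log2 RPKM over the 6 tissues, after each transcript was centred on its own mean, which is 0 for equal shapes. All transcripts share the 6 libraries and the selection, so the values describe likeness only. The RMS difference was 0.19 between clust2724 and clust2684, 0.30 between clust2472 and clust2724 and 0.45 between clust2472 and clust2684. These were close beside a median of 0.81 over the 28 pairs of members and 1.56 over all 3570 pairs of the list. Over all 6 pairs of Methyltransf_2 members the median was 1.04. Such closeness was not particular to the trio: SdL7H was at 0.24 from clust2724, 0.34 from clust2472 and 0.35 from clust2684. Reads could map to several places, and how far the trio shared reads was not tested. The SABATH pair, clust2514 and clust4450, differed by 0.70, and clust2514 was nearer to clust2684, at 0.39, than to clust4450. The transcript clust2791 lay at 1.63 or more from every other member, the 3 with the same domain included. Its profile rests on 1 fragment in roots and 7 in leaves >10 cm. SdPAOMT was farther from each member than any of the other 7 were, except for clust4440, with 2.17 to SdPAOMT and 2.39 to clust2791, and clust15, with 1.84 and 2.15.

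**Figure D5:**
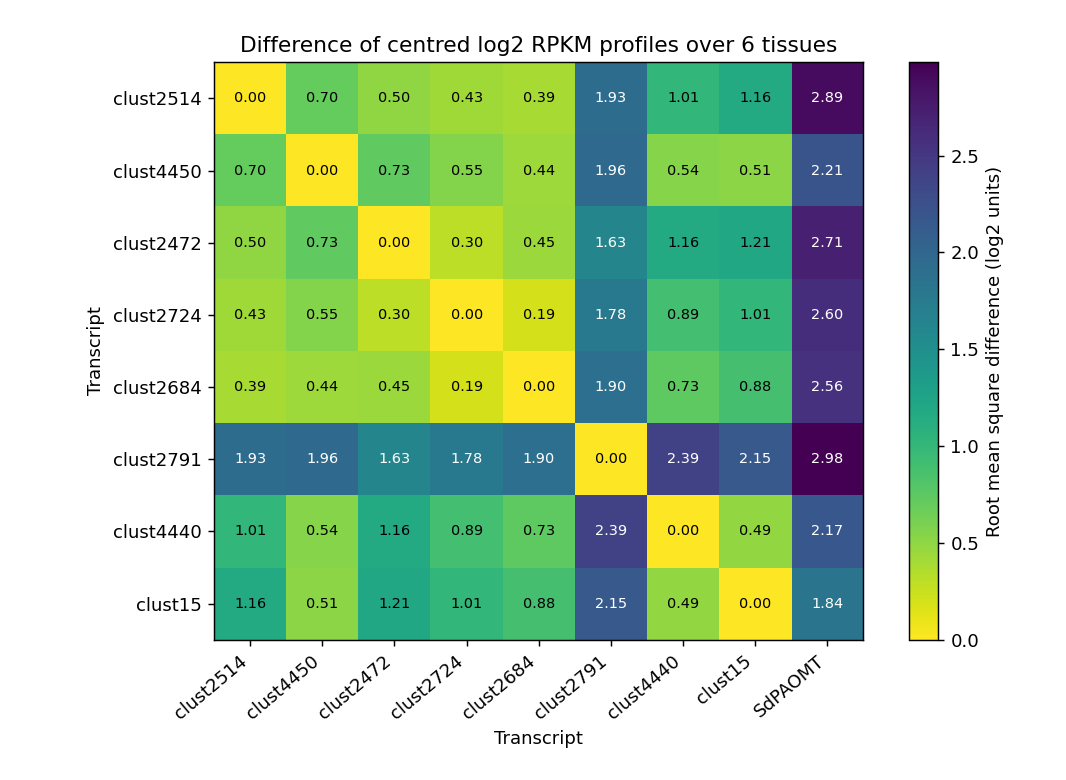
Root mean square difference (log2 units) between the centred log2 RPKM profiles of the 8 members (rows) and of the members and SdPAOMT (columns) over the 6 tissues, where 0 means the same shape. The block of clust2472, clust2724 and clust2684 is at 0.19 to 0.45, the row of clust2791 at 1.63 to 2.98, and the column of SdPAOMT at 1.84 to 2.98.

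The most alike listed transcripts came from several pathways. For clust2514 it was clust1854, annotated as an anthocyanin malonyltransferase, at 0.16, then clust976, a probable carotenoid cleavage dioxygenase 4, at 0.32. For clust4450 it was clust3861, closest to a lavandulyl diphosphate synthase, at 0.18, then the sesquiterpene synthase-like clust2225, at 0.28. The trio of Methyltransf_2 members shared its neighbours: clust1946, an alcohol acyltransferase-like transcript, was among the 2 most alike of all 3, and its RMS difference of 0.10 from clust2724 was the smallest of all pairs of the list. The P450-like clust3466 (closest to menthofuran synthase) was the nearest of clust2472, at 0.21, and the second nearest of clust2724, at 0.17. For clust4440 the nearest was clust1111, closest to carotenoid cleavage dioxygenase 1, at 0.32, then the germacrene D synthase-like clust1421, also at 0.32. For clust15 it was clust629, closest to monoterpene synthases, at 0.37, then clust4440, at 0.49. No listed transcript was near clust2791: the nearest, clust3441, an uncharacterized protein, was at 0.80 and the next, the serine carboxypeptidase-like clust1559, at 1.05.

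Of the other phenylpropanoid-type transcripts on the list, the chalcone isomerase-like clust6044 had levels near those of clust2472. The enzyme family closes the flavanone ring from which flavones, substrates of flavonoid *O*-methyltransferases, are made. The RPKM of clust6044 was 0.504 in roots (2 fragments), 25.3 in stem, 1722 in trichomes and, by leaf size, 169 at <3 cm, 115 at 3–10 cm and 49.0 at >10 cm. The ratio of leaves >10 cm to leaves <3 cm was 0.290 for clust6044 (0.254–0.329), which overlaps the intervals of clust2472 and clust2724. In contrast, clust3515, a phenylcoumaran benzylic ether reductase-like transcript of lignan metabolism, was at 0.149 (0.142–0.155) and clust1854 at 0.673 (0.63–0.72). These 3 were set beside the members for their annotation, with the values of the list known.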

How the data were processed

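RNA of 6 tissues (1 TruSeq stranded library each) was sequenced by the authors as read pairs on a HiSeq2500 and separated with CASAVA 1.8.1. Reads were mapped by the authors with CLC Genomics Workbench 8.0, at length and similarity fractions of 0.9, with up to 10 hits per read, without using strand and counting a pair once. As reference they used consensus sequences of trichome PacBio transcripts, from reading frames not shorter than 600 nt clustered at 0.85 similarity. The deposited values are RPKM as the authors computed them, for transcripts that passed their selection. The table used here holds 85 rows, 1 fewer than the selected set the paper describes. The deposited table also holds 2 columns of correlation coefficients by the authors, which were not used. It held 0 RPKM columns of other samples, and other transcripts are not analysed here.

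Samples were grouped by their labels. The 8 members were found by their Pfam and BLAST annotation in the table. They, the groups, the named genes (all members, the MePA pathway, and the 2 most alike transcripts of each member) and the comparisons were chosen with earlier results of these data known. No filter and no pseudocount were used, as no value is 0. With 1 library per tissue no test was made: 7 pairs of tissues were compared by the ratio of RPKM, and a call means at least 2-fold.

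Whole fragments were recovered from RPKM (fragments divided by length and library total), with lengths in steps of 3 nt between 600 and 3000 nt and the smallest totals that fit. A first search up to 4000 nt gave no joint solution, and the limit was lowered after that. In the end 510 of 510 values were whole within 0.001 fragments. The search accepted only solutions that met this for every value, so it is no check of the counts. True totals can be whole multiples of these, and intervals are then too wide. Totals were 6516794 (roots), 7323656 (stem), 3314347 (trichomes), 14854782 (leaves <3 cm), 19415968 (leaves 3–10 cm) and 9454204 (leaves >10 cm). Intervals are exact Poisson (levels) and Clopper-Pearson (ratios), at 95%. Tested on simulated data (5 tables of 85 transcripts), the search recovered 30 of 30 totals and every count of 425 of 425 transcripts, and 407 of 425 intervals of trichomes over leaves <3 cm held the simulated ratio. The simulated lengths kept to the searched limits and steps and the counts had Poisson error alone. The simulation therefore cannot show that the real data meet these assumptions. Alternatives were 2 pseudocounts, other folds, a minimum of 10 fragments, the mean, fragments in place of RPKM, scaling to the 76 other transcripts, SdPAOMT among the SABATH transcripts, no clust2684, and no trichomes library. Software was matplotlib 3.10.9, pandas 2.3.3, scipy 1.17.1, numpy 2.4.6 and Python 3.11.15. No sequences are printed, because none could be read from the files used here.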

Additional observations from a re-analysis of the deposited data

How the results depend on the processing

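No paired analysis was possible because each tissue has 1 library. Scaling to the median RPKM of the 76 other listed transcripts moved most summaries, since it measures the members against the list. The log2 ratio of that median is subtracted from those of the members. It was 3.02 (trichomes over leaves <3 cm), −1.27 (leaves >10 cm over leaves <3 cm) and −2.85 (roots over stem). So scaled, the medians were 0.88 (SABATH), 0.40 (Methyltransf_2) and 0.68 (all 8) for trichomes over leaves <3 cm, −1.47, −1.51 and −1.50 for roots over stem, and 0.48, −0.55 and 0.16 for leaves >10 cm over leaves <3 cm, where the SABATH median and that of all 8 change sign. Past 2-fold were then 1 member in trichomes over leaves <3 cm, 1 in leaves >10 cm over leaves 3–10 cm, 1 in leaves >10 cm over leaves <3 cm, 5 in roots over stem and 5 in roots over trichomes, and 2 members were lower at each leaf step. With a fold of 1.5, 3 members were lower in leaves 3–10 cm than in leaves <3 cm, 7 in leaves >10 cm than in leaves <3 cm and 1 in stem than in leaves >10 cm, and with a fold of 4, 1 in leaves >10 cm than in leaves 3–10 cm and 1 than in leaves <3 cm. The mean over Methyltransf_2 members was 3.68 for trichomes over leaves <3 cm and −2.72 for leaves >10 cm over leaves <3 cm, and that over all 8 was −1.72 for leaves >10 cm over leaves <3 cm. Without clust2684 the Methyltransf_2 median for trichomes over leaves <3 cm was 3.59, and clust2791 was kept in every setting of that comparison. With at least 10 fragments in both libraries the median of members for leaves >10 cm over leaves <3 cm was −0.91. That minimum left out clust2791, and the Methyltransf_2 median was then −1.74. Counting SdPAOMT as SABATH gave medians of 3.85 for trichomes over leaves <3 cm and −3.32 for roots over stem, and SABATH shares of 84.6% (roots), 71.0% (trichomes), 65.6% (leaves <3 cm) and 66.4% (leaves 3–10 cm). By fragments the SABATH share was 39.1% (roots), 58.8% (stem), 61.0% (trichomes), 56.4% (leaves <3 cm), 59.0% (leaves 3–10 cm) and 63.6% (leaves >10 cm). A pseudocount of 1 RPKM moved the ratio of 3 of 56 pairs of member and comparison beyond their interval, all of clust2791 (log2 ratios of −4.66 for leaves >10 cm over leaves <3 cm, −2.23 for roots over stem and −9.88 for roots over trichomes, a shift of up to 2.98), and 0.1 RPKM moved 0 of 56. Without the trichomes library, and likewise with 1 RPKM added, 6 of 8 members kept their most alike transcript. Without that library it became clust4450 for clust4440 and clust4440 for clust15. With 1 RPKM added it became SdL7H for clust2472 and clust1540 for clust2724. Depth limits the roots most, where clust2791 has 1 fragment and clust2472 has 9.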
